A study of Arabidopsis thaliana with 24 samples.

Results

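The genes described here are 38 Arabidopsis genes for the synthesis, perception, repression, turnover and response of jasmonate, chosen by their gene identifiers, of 26405 genes listed in any library. This list and the other gene lists were chosen with earlier results of these data known. Counts of their members beside shares of all genes are therefore descriptive. They comprised 12 synthesis genes, the receptor gene, 12 repressor genes, 3 transcription factor genes, 7 catabolism genes and 3 response genes. RNA came from wild-type Col-0 plants, either diploid (2x) or neo-tetraploid (4x, a line of the same accession after whole-genome duplication), grown for 2 weeks on agar with nutrient solution and sucrose and with 0 mM (control) or 35 mM added NaCl. Roots and shoots were sequenced separately, which gave 8 groups of 3 replicate libraries, 24 in all. Each replicate held pooled plants of one experiment, so the p-values measure the spread between such pools. The question put to these genes was how their RNA levels differed between the organs, between the ploidies and with NaCl.

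Jasmonate is made from linolenic acid by lipoxygenases (LOX), allene oxide synthase (AOS) and allene oxide cyclases (AOC) in the plastid, and then by OPR3, OPCL1 and acyl-CoA oxidase (ACX1) in the peroxisome. JAR1 couples it to isoleucine. The conjugate brings the F-box receptor COI1 together with the JAZ repressors, which are then degraded, and this frees MYC2, MYC3 and MYC4 to activate their targets. Among these targets are the synthesis genes and the JAZ genes themselves, and CYP94 enzymes that oxidise the conjugate. Leaf wounding is the best known trigger, and the vegetative storage protein genes VSP1 and VSP2 are its classical markers.

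The summed expected counts ranged from 11202503 to 11909554 per library. Organ labels matched the marker genes. The summed level of 8 leaf markers was 46350 to 59679 FPKM (fragments per kilobase of transcript scaled to the mapped total, here single reads) in shoots and 72.1 to 267 FPKM in roots, that of 8 root markers was 9.59 to 19.8 FPKM in shoots and 800 to 2375 FPKM in roots, and 6 flower markers together stayed between 0.31 and 1.54 FPKM. In these bulk samples, fewer cells of a type and less RNA per cell cannot be told apart. A feature of the libraries touches most results below. The NaCl shoot library numbered 2 stood apart for the jasmonate genes in both ploidies, and the libraries numbered 3 stood apart for clock genes in all 8 groups.

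The heat map of all members by library showed a division by organ before any effect of ploidy or salt. A gene was called when edgeR's quasi-likelihood test gave an adjusted p under 0.05 (Benjamini-Hochberg over all genes tested) and the levels differed at least 2-fold. Over the mean of the 4 conditions, 24 of 38 jasmonate genes were lower in roots than in shoots, where 21.9% of all 21338 genes tested were lower. Only 2 members, JAZ4 and VSP1, were called higher in roots, against 22.1% of all genes. The median log2 difference of root against shoot was -2.57 for the members and 0.04 for all genes.

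**Figure D1:**
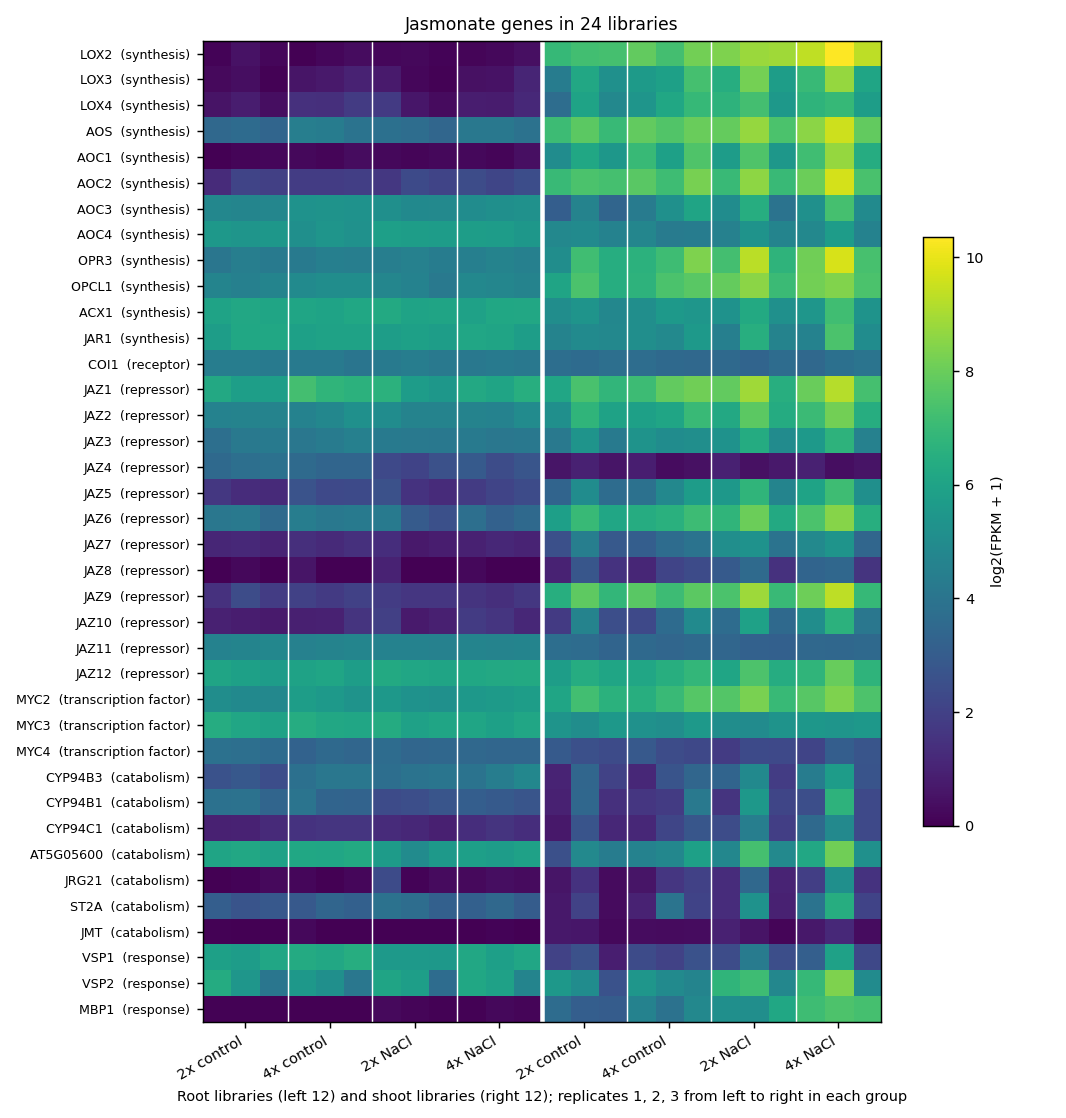
Heat map of log2(FPKM + 1) of the 38 jasmonate genes (rows, with their roles) in 12 root and 12 shoot libraries (columns, 3 replicates per group, 2x diploid and 4x neo-tetraploid). LOX2, AOC1, LOX3, JAZ9 and MBP1 are dark in roots and bright in shoots, JAZ4 and VSP1 show the reverse, and the middle column of each NaCl shoot group is the brightest for most rows.

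Several synthesis genes were nearly absent from roots. LOX2, the plastid lipoxygenase that supplies much of the wound jasmonate of leaves, was at 0 to 0.42 FPKM in the 12 root libraries and at 123 to 1312 FPKM in the 12 shoot libraries. AOC1, an allene oxide cyclase, was at 0 to 0.36 FPKM in roots and 31.7 to 424 FPKM in shoots. In diploid control roots no library held more than 1.61 counts of AOC1, so that it was at least 185-fold lower there than in diploid control shoots, with 3 counts per library as the floor. AOS was present in both organs, with 9.30 to 20.3 FPKM in roots and 127 to 749 FPKM in shoots, a log2 difference of -4.81 ± 0.21 (SE; edgeR adjusted p = 9.632e-15). Of the later enzymes, OPR3 and OPCL1 were also lower in roots, with log2 differences of -3.97 and -3.42. ACX1 had a difference of -0.05 ± 0.19 and JAR1 of -0.07 ± 0.28, neither of them called and both above 0 (0.51 and 0.50) with library totals in place of TMM.

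Of the cyclase genes, AOC1 and AOC2 were called lower in roots. AOC3 and AOC4 were not called, with log2 differences of -0.76 and 0.18, or -0.19 and 0.74 with library totals. AOC4 ranged from 35.2 to 56.2 FPKM in roots and from 18.6 to 51.9 FPKM in shoots, while AOC2 ranged from 1.39 to 4.48 FPKM in roots and from 127 to 816 FPKM in shoots. AOC3 lay between them, at 25.2 to 39.0 FPKM in roots and 7.61 to 158 FPKM in shoots. Thus by FPKM the most abundant cyclase RNA was AOC4 or AOC3 in roots and AOC2 in every shoot library. AOC1, AOC2 and AOC3 had expected counts that were not whole in 23, 16 and 23 of 24 libraries, which shows that reads were divided between similar genes, so their separate levels are uncertain.

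Among the 12 JAZ genes, which encode the repressors, 10 were lower in roots and JAZ4 alone was higher. JAZ4 was at 3.26 to 13.6 FPKM in roots and 0.26 to 0.92 FPKM in shoots (log2 difference 3.06 ± 0.18, adjusted p = 1.146e-12). JAZ9 showed the widest reverse difference, with 1.65 to 4.24 FPKM in roots and 89.0 to 647 FPKM in shoots. JAZ10, a repressor that is itself strongly induced by jasmonate in leaves, was at 0.68 to 2.95 FPKM in roots and 2.43 to 98.5 FPKM in shoots (log2 difference -4.60 ± 0.52, adjusted p = 7.017e-08). JAZ11 passed the adjusted p but not the fold threshold, with a log2 difference of 0.70 ± 0.06 towards roots. JAZ12 was called lower in roots with all libraries, at -1.18 ± 0.17, and was no longer called without the NaCl shoot libraries numbered 2.

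The organ difference of the receptor gene was below the fold threshold, and its size depended on scaling. COI1 was at 15.3, 17.7 and 19.9 FPKM (lowest, median and highest) in roots and at 9.03, 11.6 and 14.8 FPKM in shoots. By FPKM its root libraries thus all lay above its shoot libraries. After TMM scaling its log2 difference was 0.08 ± 0.06 (adjusted p = 0.2155), and with library totals it was 0.63. MYC2, the main transcription factor of the wound branch, was at 27.7 to 54.0 FPKM in roots and 67.1 to 324 FPKM in shoots (log2 difference -2.57 ± 0.18, adjusted p = 2.411e-11). MYC3 and MYC4 lay the other way, at 0.31 ± 0.07 and 0.62 ± 0.12, below the fold threshold.

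VSP1 and VSP2, a tandem pair of storage protein genes, differed in their pattern. VSP1 was at 44.9 to 87.1 FPKM in roots and 0.85 to 59.4 FPKM in shoots (log2 difference 2.53 ± 0.37, adjusted p = 2.512e-06). Of the 12 shoot libraries, only the NaCl library numbered 2 of the neo-tetraploid reached the root range. VSP2 overlapped widely between the organs, at 11.5 to 81.9 FPKM in roots and 5.12 to 327 FPKM in shoots. Its call as lower in roots (log2 difference -1.06 ± 0.42, adjusted p = 0.0259) was lost without the NaCl shoot libraries numbered 2. It was called in 1 of 3 fits that each left out all libraries of one number, with differences from -1.30 to -0.70. VSP1 and VSP2 had part counts in 24 of 24 libraries, so reads were shared between them. MBP1, which encodes a myrosinase-binding protein of the glucosinolate defence, was at 0 to 0.20 FPKM in roots and 7.06 to 177 FPKM in shoots, at least 1022-fold lower in neo-tetraploid NaCl roots than in the matching shoots.

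The size of the organ difference depends on scaling. With library totals in place of TMM factors the median of all genes moved from 0.04 to 0.59 on the log2 scale. Of all called genes, 50.2% were higher in roots with TMM and 66.9% with totals, and of the members 4 (JAZ11 and MYC4 beside JAZ4 and VSP1) were then higher and 22 lower. JAR1, CYP94B3, ACX1, AT5G05600 and ST2A, all uncalled, changed the sign of their organ difference with that scaling.

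In roots 32 of 38 members had at least 10 counts in at least 3 libraries and were tested. LOX2, AOC1, JAZ8, JRG21, JMT and MBP1 were too low. NaCl in diploid roots changed 3 of the 32. CYP94B3 rose, where 1.01% of the 20239 genes tested in roots rose, and JAZ4 and CYP94B1 fell, where 1.81% fell. CYP94B1 and CYP94B3 encode cytochrome P450 enzymes of the same family that hydroxylate the jasmonate-isoleucine conjugate, and they moved in opposite directions. The median log2 change over the 32 members was 0.01, beside 0.02 for all genes, so the list as a whole had no common direction.

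The promoters of CYP94B1 and CYP94B3 are shown with their sequences, to give the sequence at the start of genes of one enzyme family that moved in opposite directions. Those of MBP1 and LOX2, chosen after their shoot values were seen, are added. Each window runs from 250 bases before to 50 bases after the start of the gene in RefSeq (TAIR10.1). Capitals mark the G-box CACGTG, a motif bound by MYC2, or the T/G-box AACGTG, each searched on both strands.
CYP94B1 promoter: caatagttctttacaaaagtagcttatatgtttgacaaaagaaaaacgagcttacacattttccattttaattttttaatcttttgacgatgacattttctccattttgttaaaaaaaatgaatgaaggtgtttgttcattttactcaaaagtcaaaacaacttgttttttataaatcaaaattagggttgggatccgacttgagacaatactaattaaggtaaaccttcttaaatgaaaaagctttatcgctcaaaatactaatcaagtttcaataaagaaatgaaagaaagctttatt
CYP94B3 promoter: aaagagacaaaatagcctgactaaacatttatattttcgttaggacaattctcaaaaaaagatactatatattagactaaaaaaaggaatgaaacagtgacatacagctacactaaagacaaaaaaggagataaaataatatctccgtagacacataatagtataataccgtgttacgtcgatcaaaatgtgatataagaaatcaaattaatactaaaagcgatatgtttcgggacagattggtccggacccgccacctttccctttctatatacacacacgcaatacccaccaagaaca
MBP1 promoter: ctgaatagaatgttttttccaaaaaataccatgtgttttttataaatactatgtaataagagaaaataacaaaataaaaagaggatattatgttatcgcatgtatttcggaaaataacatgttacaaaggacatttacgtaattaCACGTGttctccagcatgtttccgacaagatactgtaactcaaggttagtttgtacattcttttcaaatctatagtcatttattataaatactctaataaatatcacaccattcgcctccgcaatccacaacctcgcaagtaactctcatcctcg
LOX2 promoter: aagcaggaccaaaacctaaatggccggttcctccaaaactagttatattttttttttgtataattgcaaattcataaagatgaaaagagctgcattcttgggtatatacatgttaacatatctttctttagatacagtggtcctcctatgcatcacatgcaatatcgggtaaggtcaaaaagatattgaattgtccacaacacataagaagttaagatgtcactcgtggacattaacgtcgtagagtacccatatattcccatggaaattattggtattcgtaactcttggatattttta
The windows lie at chr5:25410676-25410975 (minus strand, CYP94B1, AT5G63450), chr3:17976725-17977024 (minus strand, CYP94B3, AT3G48520), chr1:19352742-19353041 (minus strand, MBP1, AT1G52040) and chr3:16524995-16525294 (plus strand, LOX2, AT3G45140).
Among these 4 windows only that of MBP1 held a match, a G-box 105 bases before the gene start. Over all 38 members 7 windows (18.4%) had a G-box and 12 (31.6%) a T/G-box, where 7.68% and 8.95% of 27443 protein-coding promoters of the same length had them. JAZ3 had 2 G-boxes, and JAZ2, JAZ7, JAZ8, ACX1 and AOS had 1 each. A match is a run of letters and not evidence of binding, and nothing about the factors follows from a window without one.

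JAZ4 was at 10.8, 12.7 and 13.6 FPKM in diploid control roots and at 3.91, 3.26 and 5.01 FPKM in diploid NaCl roots. The NaCl libraries all lay below the control libraries, and the log2 fold change was -1.68 ± 0.20 (adjusted p = 0.000562). In neo-tetraploid roots the control libraries had 10.8, 9.37 and 9.26 FPKM and the NaCl libraries 6.70, 4.26 and 5.69 FPKM, again without overlap. There the log2 change was -0.88 ± 0.19 (adjusted p = 0.0190), below the 2-fold threshold. The difference between the ploidies in this change was 0.80 ± 0.28, with an adjusted p of 0.7005.

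CYP94B1 was at 13.4, 14.0 and 9.41 FPKM in diploid control roots and at 4.15, 4.68 and 5.59 FPKM with NaCl. Its log2 change was -1.43 ± 0.23 (adjusted p = 0.00291). In neo-tetraploid roots it was at 14.7, 9.13 and 8.78 FPKM in controls and 7.63, 6.67 and 5.56 FPKM with NaCl, a change of -0.77 ± 0.22 that did not pass (adjusted p = 0.0580). The groups did not overlap in either ploidy.

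CYP94B3 was at 5.04, 6.26 and 4.53 FPKM in diploid control roots, the 3 lowest values of the 12 root libraries. It was at 12.4, 14.2 and 15.3 FPKM in diploid NaCl roots, a log2 change of 1.32 ± 0.22 (adjusted p = 0.00312). Neo-tetraploid roots had 13.3, 16.4 and 16.1 FPKM without NaCl and 14.2, 20.2 and 26.6 FPKM with it, where the change was 0.36 ± 0.20 (adjusted p = 0.3283). The ploidy difference in control roots was 1.58 ± 0.22 (adjusted p = 0.00320), and with NaCl it was 0.62 ± 0.20 (adjusted p = 0.2047). Both calls of CYP94B3 use the same diploid control libraries, and the interaction of ploidy and NaCl was -0.95 ± 0.29 with an adjusted p of 0.6663.

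**Figure D2:**
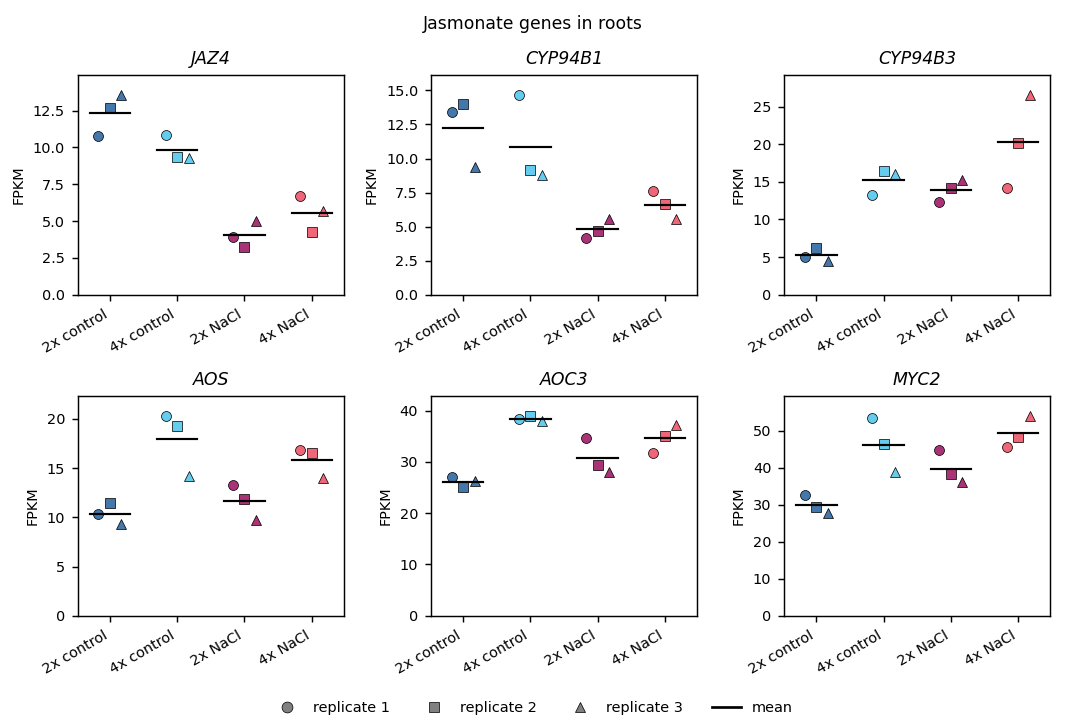
FPKM (linear axes from 0) of 6 jasmonate genes in the 12 root libraries, with 3 replicates (symbols) and their mean (line) in 2x and 4x control and NaCl roots. JAZ4 and CYP94B1 are lower with NaCl, the 3 diploid control libraries of CYP94B3 lie at 4.53 to 6.26 FPKM below the other 9, and AOS, AOC3 and MYC2 are lowest in diploid controls or overlap with the diploid NaCl libraries.

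At the adjusted p alone, 6 members passed for NaCl in diploid roots, where 9.64% of all genes passed. Beside the called genes these were AT5G05600, annotated as a 2-oxoglutarate-dependent oxygenase, with -0.71 ± 0.17, VSP1 with -0.45 ± 0.12, and ST2A, a sulfotransferase for hydroxylated jasmonate, with 0.74 ± 0.21. In neo-tetraploid roots no member was called by edgeR, by DESeq2 or by limma on log2(FPKM + 1), where edgeR called 2.38% of all genes. At an unadjusted p under 0.05 in edgeR there were 9 of 32 members and 20.8% of all genes. At the adjusted p alone 2 members passed, JAZ4 and AOC4 (0.34 towards NaCl), where 6.56% of all genes passed. By FPKM 10 of 32 members had all NaCl libraries below all controls in neo-tetraploid roots, where 11.7% of all genes did. They were LOX4, AOC3, OPCL1, JAZ1, JAZ4, JAZ6, JAZ7, JAZ9, CYP94B1 and AT5G05600. Another 3 members had them all above, where 15.6% of all genes did. In diploid roots 4 members lay below and 6 above, where 10.5% and 19.3% of all genes did. The interaction of ploidy and NaCl in roots called no member in edgeR, DESeq2 or limma and 0.0% of all genes in edgeR, with 6 of 32 members and 6.22% of all genes at an unadjusted p under 0.05.

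Of the 36 other genes of the jasmonate pathway and its downstream targets, 22 were tested in roots. TAT3, a tyrosine aminotransferase gene induced by jasmonate, was the only one called in any ploidy or NaCl comparison within an organ, and it rose in neo-tetraploid NaCl roots by 3.23 ± 0.75 (adjusted p = 0.0234). The 8 clock genes moved in the same comparisons. In diploid NaCl roots 7 of 8 had a negative change, with a median log2 change of -0.94, and PRR5 was called at -1.13 ± 0.27. Their part in the changes of JAZ4, CYP94B1 and CYP94B3 was not tested. Without any library numbered 3, an alternative added after the data were seen, these genes were still called, at -1.82, -1.74 and 1.12. In diploid NaCl roots the library numbered 1 was the highest for 25 of 32 members, where it was for 37.7% of all genes, and for 10 of 11 genes of a touch and handling list described below. JAZ4, CYP94B1 and CYP94B3 were called in each of the 6 fits that left out one of the libraries compared, that one included. Over 10 alternative settings JAZ4 was called in 10, and CYP94B1 and CYP94B3 in 9 each. The highest adjusted p among these settings was 0.00545 for JAZ4, 0.566 for CYP94B1 and 0.436 for CYP94B3.

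By edgeR the ploidies differed in control roots for 1 of 32 members, CYP94B3 (above), where 0.85% of all genes were higher in neo-tetraploids. The count depended on the fit. With the replicate number as a block 3 members and 245 of all genes were called higher. DESeq2 called 4 members and 218 genes higher, and limma on log2(FPKM + 1) 1 member and 106 genes. In edgeR without a fold threshold 5 members passed the adjusted p, all higher in neo-tetraploids, where 2.31% of all genes passed. AOS was at 10.4, 11.4 and 9.30 FPKM in diploid and 20.3, 19.2 and 14.2 FPKM in neo-tetraploid roots without NaCl, a log2 difference of 0.85 ± 0.15 (adjusted p = 0.0125). For AOC3 the values were 27.1, 25.2 and 26.2 FPKM in diploid and 38.29, 39.02 and 38.02 FPKM in neo-tetraploid roots, a difference of 0.61 ± 0.10 (adjusted p = 0.00742). MYC2 was at 32.6, 29.5 and 27.7 FPKM against 53.3, 46.3 and 38.9 FPKM, which gave 0.69 ± 0.13 (adjusted p = 0.0162). None of these 3 genes overlapped between the ploidies. The fifth, OPCL1, a ligase for the jasmonate precursor, was at the threshold with 0.49 ± 0.12 (adjusted p = 0.0497).

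All 3 neo-tetraploid control root libraries lay above all 3 diploid ones for 12 of 32 members, where this held for 8.72% of all genes tested. The 12 were the lipoxygenase genes LOX3 and LOX4, AOS, AOC3, OPCL1, the repressor genes JAZ1, JAZ5 and JAZ7, MYC2, CYP94B3, CYP94C1 and VSP1. MYC4 alone lay below, where 11.1% of all genes did. JAZ1 was at 75.1, 55.0 and 55.0 FPKM in diploid and 152, 107 and 101 FPKM in neo-tetraploid roots without NaCl, and its difference of 1.02 ± 0.26 missed the threshold (adjusted p = 0.0619). This call depended on the fit, since JAZ1 was called in 3 of 10 alternatives, at adjusted p from 0.00423 to 0.595 over them. The median difference was 0.30 for the members and -0.01 for all genes.

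A list of 11 touch and handling genes moved in the same comparison. It holds the touch genes TCH2, TCH3 and TCH4, and its other members are rapid stress genes. All 11 had a positive difference, with a median of 1.43 on the log2 scale, and 5 were called. Among these were the rapid stress genes WRKY40 at 2.57 ± 0.39, SZF1 at 1.68 ± 0.30 and HSPRO2 at 1.48 ± 0.23. The summed level of the 11 was 178 to 211 FPKM in diploid control roots and 421 to 590 FPKM in those of the neo-tetraploid. In the NaCl roots of the 2 ploidies it was 169 to 372 FPKM and 240 to 323 FPKM. Their part in the ploidy difference of the jasmonate genes was not tested. With NaCl the ploidy comparison in roots called none of the members by edgeR, DESeq2 or limma (11 of 32 members and 14.9% of all genes at an unadjusted p under 0.05 in edgeR), where edgeR called 0.124% of all genes. All neo-tetraploid NaCl root libraries lay above all diploid ones for 6 of 32 members, where 6.47% of all genes did. They lay below for 0 members, where 19.9% of all genes did.

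In shoots all 38 members were tested, and the jasmonate genes varied far more between replicates than in roots. The summed level of the members was 700 to 987 FPKM in the 12 root libraries and 1186 to 9597 FPKM in the 12 shoot libraries. Within diploid controls it was 755 to 854 FPKM in roots and 1186 to 2314 FPKM in shoots. Within diploid NaCl groups it was 700 to 925 and 2127 to 5909 FPKM. Within neo-tetraploids it was 908 to 987 and 2084 to 3434 FPKM in controls, and 862 to 898 and 2838 to 9597 FPKM with NaCl. In the diploid NaCl shoots 31 of 38 members were highest in the library numbered 2, and in the neo-tetraploid NaCl shoots 34 of 38 were, where that library was the highest for 26.3% and 25.0% of all genes. Its level was 2.65 times the mean of the other libraries of the group in the diploid and 2.87 times in the neo-tetraploid, as the median over members. CYP94B1 was at 1.94, 44.7 and 3.52 FPKM in diploid and at 4.58, 103 and 3.90 FPKM in neo-tetraploid NaCl shoots. OPR3, the reductase of the peroxisomal steps, was at 152, 631 and 106 FPKM and at 279, 839 and 161 FPKM. JAR1 was at 88.3 and 172 FPKM in these libraries and stayed between 21.2 and 46.7 FPKM in the other 10 shoot libraries.

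The same libraries were not high in all stress genes. Of the 11 touch and handling genes 6 were lowest in the diploid library numbered 2 and 9 in the neo-tetraploid one. Of the other jasmonate pathway genes tested in shoots, 21 of 32 and 22 of 32 were highest in them. In control shoots, too, most members were highest in one library. In diploid controls this was the library numbered 2, for 30 of 38 members, 30.3% of all genes and 8 of 11 touch and handling genes. In neo-tetraploid controls it was the library numbered 3, for 29 of 38 members, 44.0% of all genes and 7 of 11 touch and handling genes.

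**Figure D3:**
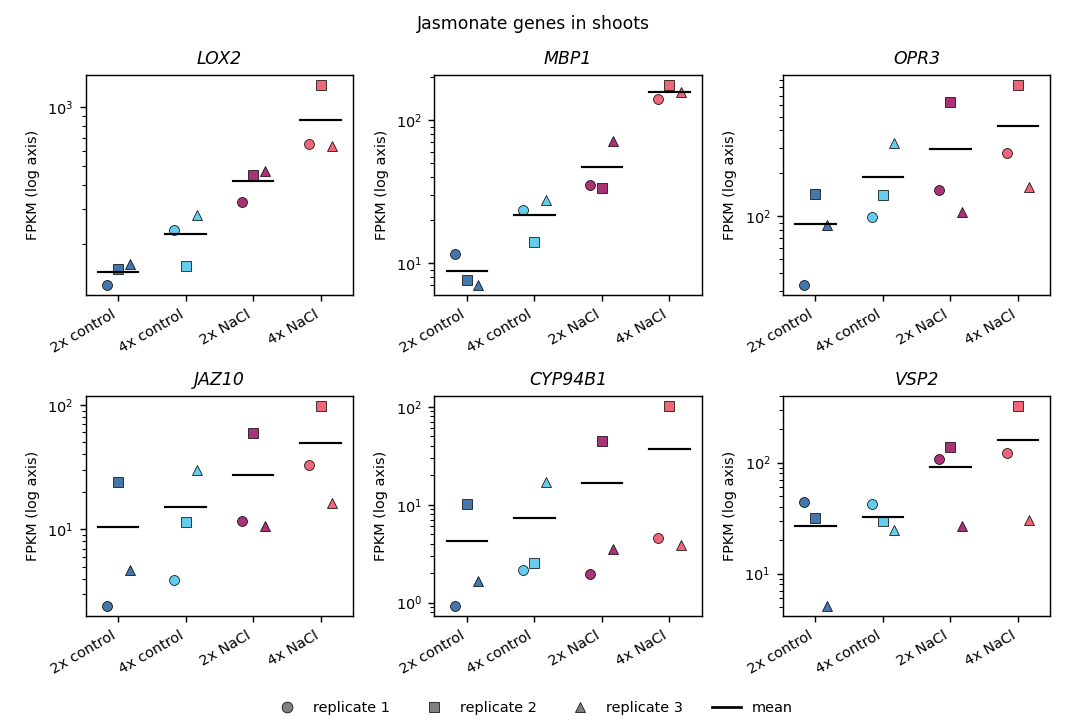
FPKM (log axes) of 6 jasmonate genes in the 12 shoot libraries, with 3 replicates (symbols) and their mean (line) in 2x and 4x control and NaCl shoots. LOX2 and MBP1 separate NaCl from control within each ploidy, whereas OPR3, JAZ10, CYP94B1 and VSP2 have their highest value in the NaCl libraries numbered 2 (squares) and overlap with the controls otherwise.

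Against this spread, the test of NaCl in diploid shoots called no member in edgeR, 2 in DESeq2 and 1 in limma on log2(FPKM + 1), where edgeR called 0.0% of all 19174 genes and DESeq2 called 132 higher and 125 lower. Limma called 4 genes higher and 5 lower. At an unadjusted p under 0.05 in edgeR there were 7 of 38 members and 17.6% of all genes. In neo-tetraploid shoots NaCl raised 1 member, MBP1, where 0.0104% of all genes rose. Replicate numbers paired the shoot libraries, so the fit with the replicate number as a block is given too. With the block LOX2 and MBP1 were called higher in diploid NaCl shoots, where 1.04% of all genes were, and the same 2 genes in neo-tetraploid NaCl shoots, where 0.334% of all genes were.

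MBP1 was at 11.6, 7.59 and 7.06 FPKM in diploid control shoots and at 34.9, 33.5 and 71.8 FPKM in diploid NaCl shoots. The log2 change was 2.44 ± 0.31 (adjusted p = 0.0524), or 2.41 ± 0.31 with the block (adjusted p = 0.0111). In neo-tetraploids it was at 23.4, 14.0 and 27.4 FPKM in controls and 139, 177 and 158 FPKM with NaCl, a change of 2.84 ± 0.31 (adjusted p = 0.0258; with the block 2.88 ± 0.31, adjusted p = 0.00968). Its NaCl libraries were all above the controls in both ploidies, and the library numbered 2 was not apart. Expected counts of MBP1 were not whole in 13 of 24 libraries. Some of its reads were thus shared with similar genes, and its separate level is uncertain. The log2 changes without the NaCl libraries numbered 2 were 2.61 and 2.70. With fewer libraries in the fit the neo-tetraploid call was lost, with an adjusted p of 0.1052. It was kept in 2 of the 6 fits that each left out one of the libraries compared, at changes from 2.65 to 3.02. It was lost without control replicate 2 or 3 or NaCl replicate 2 or 3.

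LOX2 was at 123, 148 and 157 FPKM in diploid control shoots and at 326, 451 and 474 FPKM with NaCl. The log2 change was 1.60 ± 0.32 (adjusted p = 0.0876), and 1.59 ± 0.30 with the block (adjusted p = 0.0224). Neo-tetraploid shoots had 234, 154 and 282 FPKM in controls and 650, 1312 and 635 FPKM with NaCl, a change of 1.95 ± 0.33 (adjusted p = 0.1183), and 1.88 ± 0.31 with the block (adjusted p = 0.0280). Without the NaCl libraries numbered 2 the log2 changes of LOX2 were 1.502 and 1.447. Control and NaCl libraries of LOX2 did not overlap in either ploidy. LOX2 and MBP1 were the only 2 members whose NaCl shoot libraries all lay above the controls, where 8.42% of all genes did so in diploids and 9.49% in neo-tetraploids.

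No other member was called by edgeR for NaCl in shoots, with or without the block. AOS was at 136, 214 and 127 FPKM in diploid controls and 243, 419 and 171 FPKM with NaCl, a log2 change of 0.88 ± 0.47 (adjusted p = 0.3458). In neo-tetraploid shoots AOS was at 235, 184 and 255 FPKM and at 373, 749 and 230 FPKM (1.00 ± 0.47, adjusted p = 0.4152). Without the NaCl libraries numbered 2 the changes of AOS were 0.42 and 0.35. MYC2 was at 67.1, 146 and 97.1 FPKM in diploid controls and 194, 306 and 125 FPKM with NaCl (1.09 ± 0.44, adjusted p = 0.2409). In neo-tetraploids MYC2 was at 89.5, 130 and 195 FPKM in controls and 204, 324 and 174 FPKM with NaCl (0.74 ± 0.44, adjusted p = 0.5109). Without the NaCl libraries numbered 2 its changes were 0.66 and 0.37. The groups of AOS and MYC2 overlapped in both ploidies.

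JAZ10 was at 2.43, 24.1 and 4.68 FPKM in diploid control shoots and 11.6, 59.6 and 10.7 FPKM with NaCl. In neo-tetraploids JAZ10 was at 3.93, 11.4 and 29.8 FPKM in controls and 32.9, 98.5 and 16.3 FPKM with NaCl. The log2 changes were 1.48 ± 1.08 and 1.73 ± 1.07, with adjusted p of 0.4981 and 0.5252, and the groups overlapped in both ploidies. Without the NaCl libraries numbered 2 the changes of JAZ10 were 0.12 and 0.65, and with each library left out in turn they ran from 0.12 to 3.04 and from 0.64 to 2.63. CYP94B3 had log2 changes of 1.65 ± 1.11 and 2.26 ± 1.11 (adjusted p = 0.4599 and 0.4380), and of 0.40 and 1.13 without the NaCl libraries numbered 2. With each library left out in turn its changes ran from 0.40 to 2.78 and from 1.12 to 2.90. VSP2 was at 44.5, 31.6 and 5.12 FPKM in diploid control shoots and 108, 140 and 26.8 FPKM with NaCl, and its neo-tetraploid controls were at 42.7, 29.9 and 24.5 FPKM. The changes of VSP2 were 1.86 ± 0.93 and 2.31 ± 0.94 (adjusted p = 0.3227 and 0.3590), with overlapping groups, and 1.39 and 1.17 without the NaCl libraries numbered 2. COI1 had log2 differences between -0.17 and 0.20 in the 8 ploidy and NaCl comparisons of both organs, none of them called.

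By role, the median log2 change with NaCl in diploid shoots was 1.15 for synthesis, 1.00 for the repressors, 2.08 for catabolism and 1.86 for the response genes, and in neo-tetraploid shoots it was 0.94, 0.94, 2.26 and 2.54. The 3 transcription factor genes had medians of -0.14 and 0.18 and COI1 changes of -0.17 and 0.17. The median over all 38 members was 1.26 in diploids and 1.00 in neo-tetraploids, with 34 and 37 of 38 above 0, beside 0.01 and 0.00 for all genes. Without the NaCl shoot libraries numbered 2 the medians were 0.41 and 0.23, with 28 and 27 of 38 above 0. The plot of the NaCl changes with and without these libraries showed this for each gene. CYP94B1 went from 2.08 to -0.62 in diploids and from 2.41 to -0.83 in neo-tetraploids, and JAR1 from 0.80 to -0.25 and from 1.08 to -0.49.

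**Figure D4:**
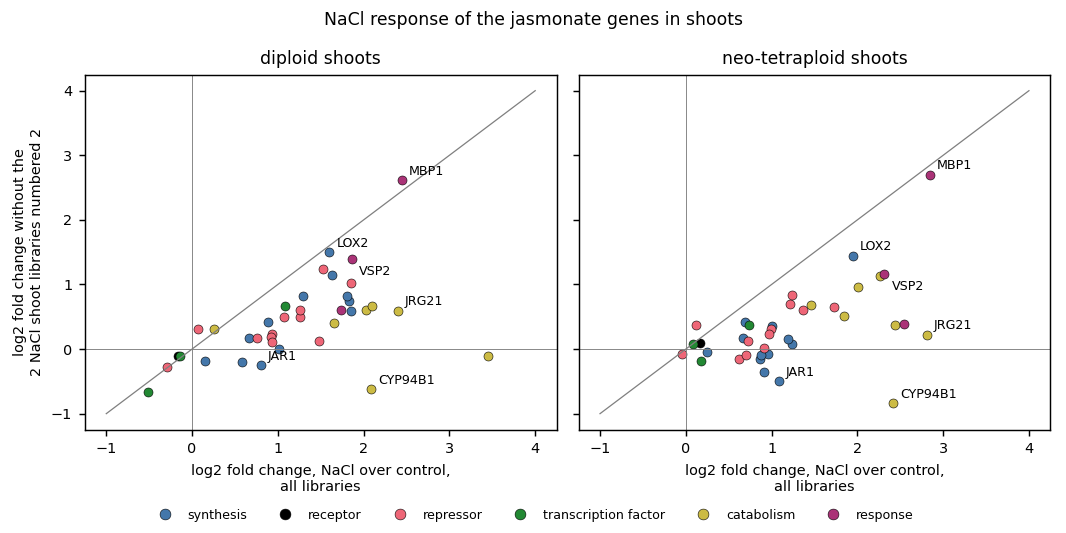
Each point is a jasmonate gene, coloured by role, with its log2 fold change of NaCl over control in shoots from all libraries (x axis) and without both NaCl shoot libraries numbered 2 (y axis), for diploids (left) and neo-tetraploids (right). The grey diagonal marks equal values. MBP1 and diploid LOX2 stay near it, neo-tetraploid LOX2 moves from 1.95 to 1.45, and CYP94B1 falls from 2.08 to -0.62 and from 2.41 to -0.83.

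Within the same-numbered pairs, 25 of 38 members were higher with NaCl in all 3 pairs of diploid shoots, where 18.2% of all genes were. In neo-tetraploid shoots 5 of 38 were, where 23.0% of all genes were; the control library numbered 3 was the highest of its group for most members there. The interaction of ploidy and NaCl in shoots called no member in edgeR, DESeq2 or limma, and 0.0% of all genes in edgeR. At an unadjusted p under 0.05 there were 0 of 38 members and 2.91% of all genes.

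The ploidies were not separated in shoots by the edgeR test. No member was called in control shoots (1 of 38 members and 9.08% of all genes at an unadjusted p under 0.05, and 1 called by DESeq2 and 0 by limma), and none in NaCl shoots (2 of 38 members and 3.89% of all genes at an unadjusted p under 0.05, and 1 called by DESeq2 and 0 by limma). Of all genes 0.0104% were called by edgeR in each. DESeq2 called 61 genes higher and 3 lower in control shoots, and 7 higher and 5 lower in NaCl shoots. MBP1 was the gene called by DESeq2 in both. Its log2 differences were 1.30 ± 0.31 in controls (edgeR adjusted p = 0.4567) and 1.70 ± 0.30 with NaCl (adjusted p = 0.3502), and with the block the adjusted p was 0.1542 and 0.2450. The neo-tetraploid libraries of MBP1 were all above the diploid ones in controls and with NaCl. In controls this held for 1 of 38 members and 7.13% of all genes. With NaCl it held for 4 of 38 members (MBP1, LOX2, JAZ11 and MYC3) and 8.64% of all genes. LOX2 differed by 0.65 ± 0.32 and 0.99 ± 0.32. In NaCl shoots 27 of 38 members were higher in the neo-tetraploid in all 3 same-numbered pairs, where 32.9% of all genes were, and in control shoots 9 of 38, where 19.9% were.

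NaCl changed the organ difference of 3 members by a direct test. In this fit over 24 libraries, 3 of 38 members had a lower change in roots than in shoots, where 0.834% of all 21338 genes did, and none had a higher one, where 0.797% did. JAZ4 (-1.37 ± 0.37, adjusted p = 0.0377) fell in roots and had log2 changes of 0.07 and 0.12 in shoots of the 2 ploidies. It had only 4 to 14 counts per shoot library, so its change in shoots was poorly measured. AT5G05600 (-2.53 ± 0.70, adjusted p = 0.0422) was at 4.82, 28.8 and 19.4 FPKM in diploid control shoots and 26.7, 157 and 28.6 FPKM with NaCl, beside 64.4, 73.9 and 59.9 FPKM and 50.5, 30.6 and 47.2 FPKM in roots. VSP1 (-2.52 ± 0.72, adjusted p = 0.0476) was at 3.11, 4.92 and 0.85 FPKM in diploid control shoots and 4.29, 19.1 and 4.55 FPKM with NaCl, beside 58.4, 52.6 and 69.0 FPKM and 47.6, 46.5 and 44.9 FPKM in roots. Without the NaCl shoot libraries numbered 2, JAZ4 remained called (-1.61 ± 0.38, adjusted p = 0.0235) and AT5G05600 and VSP1 did not. None of the 3 genes was called in any of 3 fits that each left out all libraries of one number. The organ by ploidy interaction called no member in edgeR or DESeq2 and 1 in limma, where edgeR called 0.00469% of all genes. Limma called 3 genes higher and 7 lower. At an unadjusted p under 0.05 in edgeR there were 1 of 38 members and 7.31% of all genes.

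VSP2 followed the replicate number in every group. It was lowest in the library numbered 3 in 8 of 8 groups, at 5.12 to 30.7 FPKM there and 29.9 to 327 FPKM in the libraries numbered 1 and 2. In diploid control roots it was at 81.9, 42.1 and 15.8 FPKM and in neo-tetraploid NaCl shoots at 121, 327 and 30.7 FPKM. Of the other members, AOS was lowest in the library numbered 3 in 7 of 8 groups, and none in 8. The clock gene CCA1, which peaks at dawn, was also lowest in number 3 in 8 of 8 groups, at 0.27 to 1.83 FPKM against 2.77 to 27.4 FPKM, and TOC1, which peaks at dusk, was highest there in 8 of 8, at 78.3 to 112 FPKM against 22.4 to 72.4 FPKM. The labels give no harvest time, and the part of the clock in the levels of VSP2 was not tested.

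**Figure D5:**
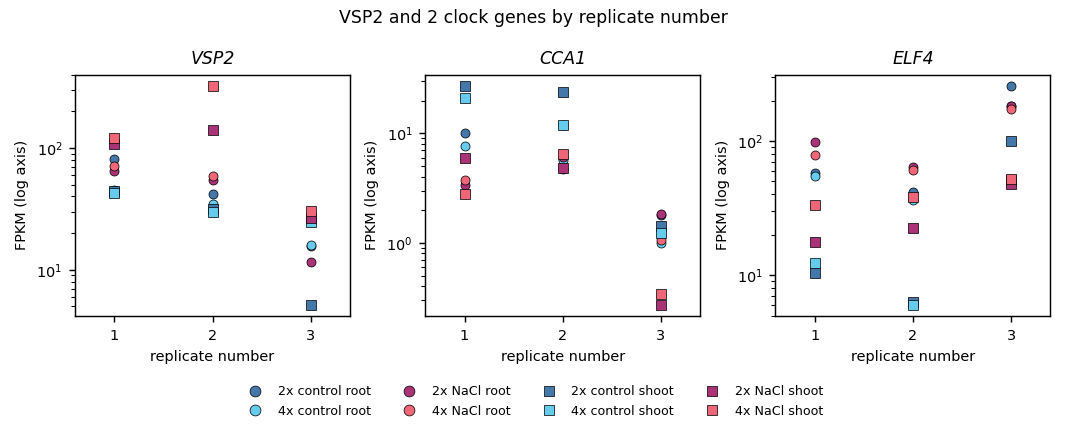
FPKM (log axes) of VSP2 and of the clock genes CCA1 and ELF4 by replicate number, with circles for root and squares for shoot groups and colours for ploidy and NaCl (1 point per library). VSP2 and CCA1 are lowest and ELF4 is highest in the library numbered 3 in 8 of 8 groups.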

How the data were processed

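RNA of 12 root and 12 shoot libraries was analysed. The authors enriched mRNA with oligo(dT), sequenced short single-end reads, aligned these with HISAT and Bowtie2 (build TAIR10) and used RSEM for quantification. They deposited an expected count per gene, RSEM's estimate of its reads, which is not normalized and need not be whole, and an FPKM value, which divides by effective length and depth. The deposited length of each gene was not used. Files list only genes with reads, so other genes were set to 0. The counting was not stated to use strand.

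Expected counts were rounded. Genes reaching 10 counts in 3 or more libraries were tested with edgeR 4.0.16 (TMM, quasi-likelihood) in R 4.3.3, with 4 groups per organ, or 8 groups over 24 libraries for organ comparisons. P-values were adjusted over all genes tested, and called means below 0.05 after adjustment and at least 2-fold different. Standard errors are the log2 change divided by the square root of F. Scripts were tested on simulated data. Floors of 3 counts per library cover counting error only.

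The members and lists were chosen with earlier results of these data known. Genes given in full were those called in a ploidy or NaCl comparison (at most 3 per direction) and LOX2, AOS, JAZ10, MYC2, COI1, CYP94B3, VSP2 and MBP1 as representatives of the roles; others are given by ranges and counts, or were named after their values were seen. In shoots, the deviations from the group mean correlated above 0.1 in 18 of 18 pairs of libraries with one number (mean 0.374, from 0.145 to 0.752), so the replicate numbers of the labels were taken to pair the shoot libraries. In roots 16 of 18 such pairs did (mean 0.212), but the root results are given without the block unless it is named.

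Alternatives were the replicate block, DESeq2 1.42.0, library totals, no filter, limma 3.58.1 on log2(FPKM + 1) and log2(FPKM + 0.1) of genes with at least 1 FPKM, one fit of 24 libraries, only the 6 libraries compared, no fold threshold and each library left out. All 38 members matched the RefSeq TAIR10.1 table. Promoters were read from that assembly, whose nuclear chromosomes are those of TAIR10.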

Additional observations from a re-analysis of the deposited data

Results flagged for a closer look

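The change with NaCl differed between roots and shoots by a direct test for 3 jasmonate genes. For JAZ4 the difference of the log2 changes (root minus shoot) was -1.37, and it remained called without the NaCl shoot libraries numbered 2. For AT5G05600 it was -2.53 and for VSP1 -2.52, and neither remained called without these libraries. With all libraries of one number left out in turn, none of the 3 was called in any of 3 fits, at values from -1.48 to -1.22 for JAZ4, from -3.34 to -1.19 for AT5G05600 and from -2.96 to -1.13 for VSP1.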

How the results depend on the processing

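The counts of called jasmonate genes were 1 for ploidy in control roots, 3 for NaCl in diploid roots, 1 for NaCl in neo-tetraploid shoots, 3 for the organ by NaCl interaction, 26 for the organ difference and 0 for the other comparisons. The settings that moved them by over 1.5 times follow, and the cause was not tested except where fewer libraries entered by construction. With the replicate block the counts were 3 for ploidy in control roots, 2 for NaCl in diploid shoots, 2 for NaCl in neo-tetraploid shoots and 6 for the organ by NaCl interaction. DESeq2 gave 4 for ploidy in control roots, 1 for ploidy in control shoots, 1 for ploidy in NaCl shoots, 2 for NaCl in shoots of each ploidy and 7 for the organ by NaCl interaction. One fit of 24 libraries gave 0 for ploidy in control roots, 1 for NaCl in diploid roots, 1 for ploidy in NaCl shoots and 2 for NaCl in shoots of each ploidy. Only the 6 libraries compared gave 4 for ploidy in control roots, 1 for NaCl in neo-tetraploid roots and 0 for NaCl in neo-tetraploid shoots. The adjusted p alone gave 5 for ploidy in control roots, 6 for NaCl in diploid roots and 2 for NaCl in neo-tetraploid roots. No filter gave 1 for NaCl in diploid shoots. Limma on log2(FPKM + 1) gave 1 there, 5 for the organ by NaCl interaction and 1 for the organ by ploidy interaction, the last also 1 without a filter. In 2 alternatives chosen after seeing the data, without the NaCl shoot libraries numbered 2 the count was 0 for NaCl in neo-tetraploid shoots and 1 for the organ by NaCl interaction, and without all libraries numbered 3 it was 0 for NaCl in neo-tetraploid shoots. Leaving out single libraries gave 0 to 1 for NaCl in roots and in shoots of the neo-tetraploid, where the root count was 1 (JAZ4) without NaCl replicate 1, and leaving out a number gave 0 to 1 for the organ by NaCl interaction. The root results above are from fits without the block, although same-numbered root libraries also had the higher correlations of deviations. Same-numbered root pairs had a mean of 0.212, from -0.012 to 0.439, with 16 of 18 above 0.1. Root pairs of other numbers had a mean of -0.105, with 0 of 36 above 0.1. The root p-values thus leave out a pairing that these correlations show. Genes passing the adjusted p for ploidy in control roots were 468 without the block and 1100 with it. The block changed no other member count in roots by over 1.5 times.

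The organ difference of ACX1 (-0.05) became 0.028 with the block, 0.51 with library totals, 0.60 and 0.61 with limma at pseudocounts of 1 and 0.1, 0.60 without a filter and 0.31 without the NaCl shoot libraries numbered 2, and -0.28 to 0.39 with a number left out. That of JAR1 (-0.07) became 0.065, 0.50, 0.72, 0.74, 0.72 and 0.59 in the same order, and -0.27 to 0.54. Without the NaCl shoot libraries numbered 2 the NaCl change was -0.62 and -0.83 for CYP94B1 and -0.25 and -0.49 for JAR1 in diploid and neo-tetraploid shoots. Leaving out single libraries gave -0.62 to 3.78 and -0.85 to 3.99 for CYP94B1, and -0.25 to 1.14 and -0.50 to 1.52 for JAR1. Among values of single genes, 771 kept their direction and side of the threshold, 26 passed it, 45 no longer passed it and 22 changed sign.

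Over all genes, higher and lower calls in control roots for ploidy were 172 and 29. One fit of 24 libraries gave 27 and 8, and limma on log2(FPKM + 1) gave 106 and 20. The replicate block gave 245 and 72, DESeq2 218 and 52, and only the 6 libraries compared 203 and 28. For NaCl in diploid roots the calls were 204 and 366, but 91 and 255 in one fit. For the organ by NaCl interaction they were 170 and 178. The block gave 262 and 265 there, DESeq2 238 and 266, and limma 176 and 196. For NaCl in diploid shoots they were 0 and 0, but 200 and 231 with the replicate block, 132 and 125 with DESeq2 and 150 and 174 in one fit of 24 libraries. For NaCl in neo-tetraploid shoots they were 64 and 119 with the block, 58 and 171 with DESeq2 and 49 and 163 in one fit, against 2 and 0. With 3 libraries per group, a missed threshold in shoots does not show that levels were equal.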
